A study of Mus with 4 samples.

Results

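Marker genes of the renal stroma were measured in FACS-isolated Six2+ cells of embryonic mouse kidneys with and without a conditional deletion of the prorenin receptor (PRR). The 9 genes were *Foxd1*, *Tcf21*, *Meis1*, *Tbx18*, *Pdgfra*, *Pdgfrb*, *Acta2*, *Dcn* and *Lum*, and every probe whose transcript accession carries one of these symbols was used. They are held by 15 of the 41174 probes on the array and are 9 of the 16358 genes that could be named. The genes were chosen by name as markers of the stroma, with earlier results of these data known.

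The cells came from kidneys on embryonic day 15.5. *Mut* embryos were Six2 CreEGFP+ and PRR flox/flox, and *WT* embryos were Six2 CreEGFP+ and PRR+/+ littermates, so both genotypes carried the CreEGFP transgene, which drives Cre in nephron progenitors. GFP+ cells were sorted and RNA was taken from pools of 10 kidneys. Each of 3 dual-colour arrays compared 1 *Mut* pool in Cy3 with 1 *WT* pool in Cy5, matched by pool number. On 1 further array, called the *WT* vs *WT* array, *WT* pool 1 was labelled with Cy5 and *WT* pool 2 with Cy3. The dyes were never exchanged between genotypes, so genotype and dye cannot be told apart on arrays 1 to 3. On the *WT* vs *WT* array, pool and dye cannot be told apart either, so its log ratio between the *WT* pools holds both. The methods describe cells split at random into pools, so the P values measure the spread between these 3 pairs of pools.

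The stroma of the developing kidney is the loose mesenchyme that surrounds the cap of nephron progenitors and the ureteric bud. Its progenitors express *Foxd1* and give rise to interstitial fibroblasts, pericytes, mesangial cells and vascular smooth muscle, while the Six2+ cap gives rise to the epithelium of the nephron. The markers fall into 4 roles here: transcription factors (*Foxd1*, *Tcf21*, *Meis1*, *Tbx18*), receptors of platelet-derived growth factor (*Pdgfra*, *Pdgfrb*), a contractile protein (*Acta2*), and small leucine-rich proteoglycans of the matrix (*Dcn*, *Lum*). In pooled RNA, a lower level of a stromal transcript per cell and fewer stromal cells in the sort cannot be told apart.

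A probe was called at a Benjamini-Hochberg adjusted P under 0.05 (limma) and a fold change over 1.5. Among the stroma markers, 1 probe of *Pdgfrb* was called higher and 1 probe of *Acta2* lower in *Mut*. The direction given here for *Pdgfrb*, and below for *Tcf21*, follows the dye labels and is the opposite of the study's listing of both genes. Over all probes, 0.551% were called higher and 1.46% lower, 2.01% in either direction. *Pdgfrb*, at 1.52-fold, lay just past the fold limit and *Tcf21*, at 1.44-fold, just under it. At the adjusted P alone, 6 of the 15 probes were higher and 5 lower, beside 13.2% and 16.4% of all probes. Among the 17915 probes with both channels well above background on arrays 1 to 3, these shares were 22.4% and 25.7%. Taking the brightest probe of each gene, *Tcf21*, *Meis1*, *Pdgfra*, *Pdgfrb* and *Dcn* were higher and *Foxd1*, *Acta2* and *Lum* lower at the adjusted P alone. The median log2 *Mut*/*WT* was 0.21 over the 9 genes and 0.078 over their 15 probes, and that of the absolute values was 0.37 and 0.30. Over all probes these medians were -0.00092 and 0.097, and over those above background -0.0041 and 0.151. Both calls were lost at the adjusted P with the deposited log ratios (0.88 with adjusted P = 0.0804 for *Pdgfrb*, -1.30 with 0.0883 for *Acta2*) and without the background offset (0.77 and -1.26), although these differences were larger than the 0.60 and -1.24 reported. They were also lost with each array centred on its median in place of loess, and neither gene changed direction. With a dye term, which takes the log ratio of each probe on the *WT* vs *WT* array as the effect of the dye, none of the 9 genes passed the adjusted P, and the value of *Tbx18* changed sign.

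All stroma markers except *Tbx18* had a probe well above background in all 8 channels, also in the *WT* pools. That count was 11 of the 15 probes. The log ratio had the same sign on arrays 1 to 3 at 14 of the 15 probes, beside 59.6% of all probes and 73.7% of those above background. At 13 probes all 3 log ratios lay on 1 side of the log ratio of the *WT* vs *WT* array, beside 61.5% of all probes and 68.7% of those above background. At 12 probes (80.0%) the normalized log2 signals of the 3 *Mut* and the 3 *WT* channels did not overlap, beside 38.0% of all probes and 52.8% of those above background.

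The level of 1 pool also moved between arrays. *WT* pool 1 was read in Cy5 both on array 1 and on the array of 2 *WT* pools. At the brightest probes, its normalized log2 signal on the second of these differed from that on the first by -0.41 for *Foxd1*, 0.48 for *Acta2* and 0.42 for *Pdgfrb*. At *Foxd1* and *Pdgfrb* these shifts can be set beside a mean log2 *Mut*/*WT* of -0.30 and 0.60. For 5 of the 9 genes (*Foxd1*, *Tcf21*, *Meis1*, *Pdgfra* and *Dcn*) the second measurement of *WT* pool 1 lay nearer to the mean of the *Mut* than of the *WT* channels of arrays 1 to 3. The same held for 39.3% of all probes and 40.5% of those above background. The log ratios within an array, which do not use levels across arrays, are therefore given for every gene.

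**Figure D1:**
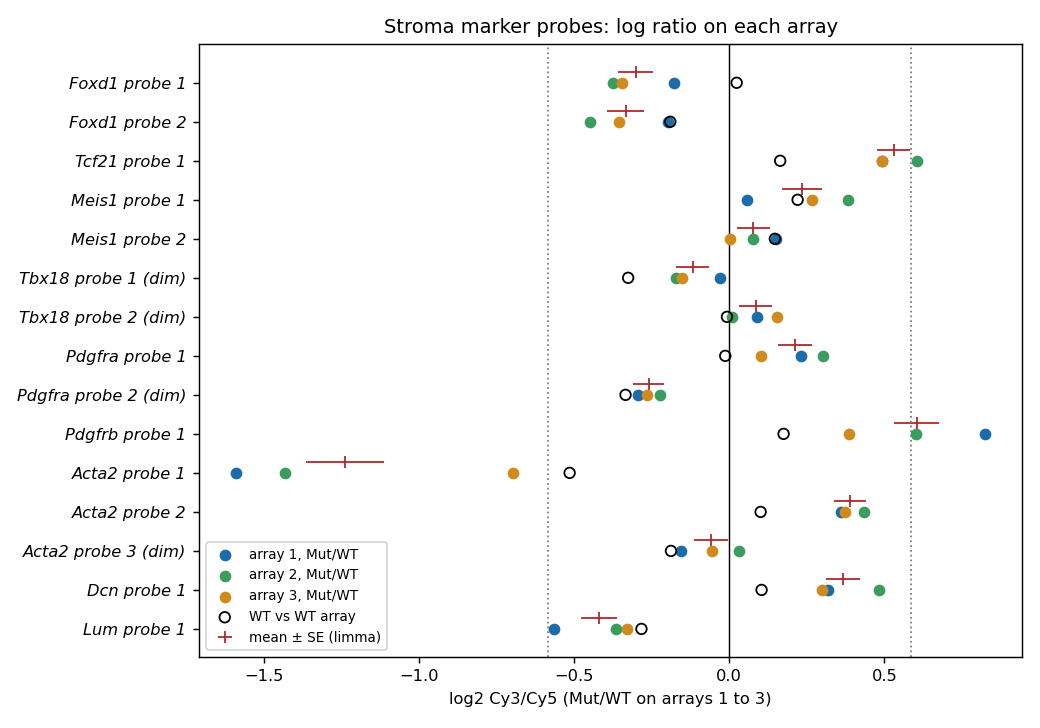
Log2 Cy3/Cy5 of the 15 stroma marker probes, 1 row per probe and numbered from the brightest, on arrays 1 to 3 (filled points, *Mut*/*WT*) and on the *WT* vs *WT* array (open circles); red crosses are the mean of arrays 1 to 3 with its SE from limma, dotted lines mark 1.5-fold, and probes not well above background in the *Mut* channel are marked as dim. The brightest probe of *Acta2* lies farthest left on all 3 arrays and *Pdgfrb* farthest right on array 1, and both probes of *Foxd1* lie left of 0. With each array centred on its median in place of loess, the means of *Tcf21*, *Pdgfra* (brightest probe), *Dcn*, *Tbx18* (brightest probe) and the second probes of *Meis1* and *Acta2* changed sign, as did that of the third, dim probe of *Acta2*.

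*Foxd1*, the forkhead transcription factor that defines the stromal progenitors, was lower in *Mut* at both of its probes. At the brighter probe (A_51_P237783) the normalized log2 signal was 10.76, 10.56 and 10.53 in *Mut* pools 1, 2 and 3, and 10.94, 10.94 and 10.88 in the *WT* pools on the same arrays. The *Mut* channels were all below the *WT* channels. The log2 *Mut*/*WT* was -0.18, -0.38 and -0.35, averaging -0.30 (SE 0.057, adjusted P = 0.0021, limma). The second probe (A_52_P128134) gave -0.20, -0.45 and -0.36, averaging -0.33 (SE 0.059, adjusted P = 0.0014, limma). Both probes thus had the smallest difference on array 1, and on each of arrays 1 to 3 they differed from each other by 0.02, 0.07 and 0.01. Between the *WT* pools of the *WT* vs *WT* array, the log2 Cy3/Cy5 was 0.02 at the first probe and -0.19 at the second. In Cy3 on that array, *WT* pool 2 read 10.55 at the first probe, within the 10.53 to 10.76 of the *Mut* pools in that dye, and 9.29 at the second, under their 9.41 to 9.58. The *Mut* pools were thus below the *WT* pools in Cy5 on the same arrays but did not stand below the *WT* pool in Cy3. With the dye term the mean was -0.32 at the brighter probe (SE 0.113, adjusted P = 0.211) and -0.14 at the second (adjusted P = 0.635), and under median centring the brighter probe gave -0.92 (adjusted P = 0.105).

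*Tcf21*, a basic helix-loop-helix factor of the kidney mesenchyme and of podocytes, was higher in *Mut* and under the fold limit. Its 1 probe (A_51_P459944) read 9.54, 9.67 and 9.47 in the *Mut* pools and 9.05, 9.07 and 8.98 in the *WT* pools of arrays 1, 2 and 3. The groups were apart by more than the range within either. The log2 *Mut*/*WT* was 0.49, 0.60 and 0.49, averaging 0.53 (SE 0.053, adjusted P = 3.7e-05, limma), and the log ratio between *WT* pools was 0.16. *WT* pool 2 in Cy3 read 9.48 on the *WT* vs *WT* array, within the range of the *Mut* pools in that dye. Under median centring the mean was -0.02, and with the dye term it was 0.37 (adjusted P = 0.137).

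*Meis1*, a homeobox factor of the stroma, had a small difference that passed the adjusted P at 1 of its 2 probes. At its brighter probe (A_52_P670612) the *Mut* pools read 7.10, 7.27 and 7.21 and the *WT* pools 7.04, 6.89 and 6.95. The log2 *Mut*/*WT* was 0.06, 0.38 and 0.27, averaging 0.24 (SE 0.064, adjusted P = 0.0170, limma), and the log ratio between *WT* pools, 0.22, lay inside this range. Without array 2 the mean was 0.16 and no longer passed (adjusted P = 0.182). The mean was 0.015 with the dye term, 0.025 under median centring and 0.70 with the deposited log ratios, and passed the adjusted P in none of them. The second probe gave 0.15, 0.08 and 0.004, a mean of 0.08 (adjusted P = 0.304), and 0.15 between the *WT* pools. So neither probe of *Meis1* moved beyond the difference between 2 *WT* pools on all 3 arrays.

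*Tbx18*, a T-box factor of the mesenchyme around the ureter, was near background. At its brighter probe, 0 of the 3 *Mut* channels and 2 of the 3 *WT* channels were well above background, and no fold above 1 could be given as a bound. The log2 *Mut*/*WT* was -0.03, -0.17 and -0.15 (mean -0.12, SE 0.054, adjusted P = 0.124, limma), nearer to 0 than the -0.33 between the *WT* pools. The second probe was not well above background in any channel. Its log2 *Mut*/*WT* was 0.09, 0.01 and 0.15 (adjusted P = 0.259), and the mean over both probes was -0.02. The deposited log ratios gave a mean of -1.44 at the brighter probe (adjusted P = 0.0590), beside -1.76 between the *WT* pools. Whether *Tbx18* differed was not detectable at this signal.

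**Figure D2:**
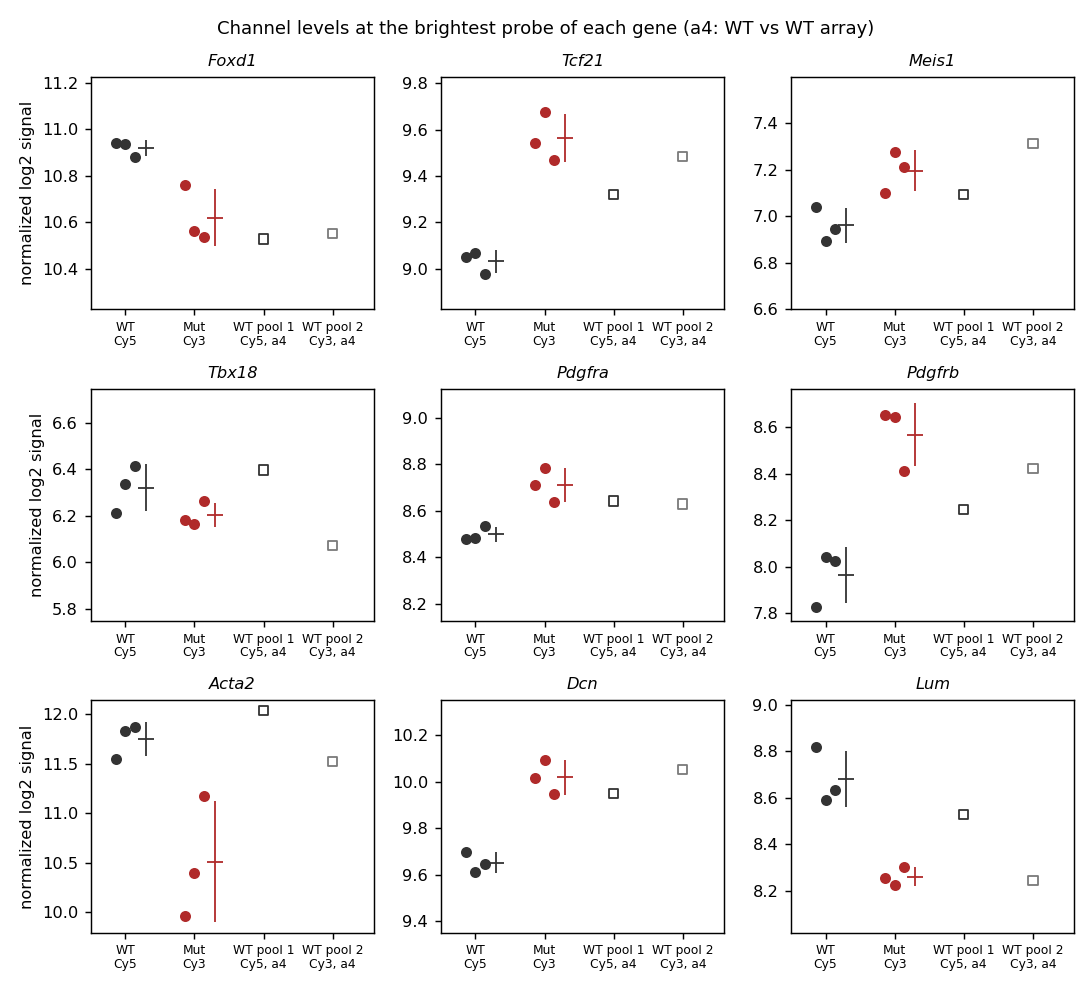
Normalized log2 signal of each channel at the brightest probe of each gene. Filled points are the 3 *WT* channels (Cy5) and the 3 *Mut* channels (Cy3) of arrays 1 to 3, with the mean ± SD beside them, and open squares are *WT* pool 1 (Cy5) and *WT* pool 2 (Cy3) on the *WT* vs *WT* array (a4). Each panel has its own axis range, and levels of different genes cannot be compared. The *Mut* and *WT* points do not overlap except at *Tbx18*, and the squares often lie nearer to the *Mut* points, as at *Foxd1* and *Dcn*.

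*Pdgfra* and *Pdgfrb* encode the receptor tyrosine kinases through which PDGF ligands act on interstitial fibroblasts and on pericytes and mesangial cells. *Pdgfrb* was called higher in *Mut*. Its 1 probe (A_51_P150964) read 8.65, 8.64 and 8.41 in the *Mut* pools and 7.83, 8.04 and 8.02 in the *WT* pools of arrays 1, 2 and 3. The log2 *Mut*/*WT* was 0.82, 0.60 and 0.39, averaging 0.60 or 1.52-fold (SE 0.073, adjusted P = 1.24e-04, limma). All 3 values exceeded the 0.18 between the *WT* pools, and array 1 gave the largest difference. Without array 1 the mean was 0.49, under the fold limit, so the call of *Pdgfrb* depended on that array. In Cy3 on the *WT* vs *WT* array, *WT* pool 2 read 8.42, just above *Mut* pool 3. With the dye term the mean was 0.43 (SE 0.146, adjusted P = 0.203), and under median centring 0.14.

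*Pdgfra* was held by a probe printed in 10 spots (A_51_P345649) and by a dim probe in 1 spot. The 10-spot probe read 8.71, 8.78 and 8.64 in the *Mut* pools and 8.48, 8.48 and 8.54 in the *WT* pools. Its log2 *Mut*/*WT* was 0.23, 0.30 and 0.10, averaging 0.21 (SE 0.056, adjusted P = 0.0146, limma), beside -0.01 between the *WT* pools, and it was -0.29 under median centring. Without array 2 the mean of 0.17 did not pass (adjusted P = 0.152). Across the 8, 9, 10 and 10 spots used on arrays 1, 2, 3 and the *WT* vs *WT* array, the SD was 0.026, 0.038, 0.064 and 0.077. Outlier spots, which are left out of these values, included 1 on array 2 at -1.16. On arrays 1 and 2 all spots used thus lay above 0 (lowest 0.18 and 0.26), while those of array 3 began at -0.000745. The dim probe went the other way and passed the adjusted P as well, with -0.29, -0.22 and -0.26 (mean -0.26, adjusted P = 0.00278, limma), beside -0.33 between the *WT* pools, and was well above background in 0 of 3 *Mut* and 1 of 3 *WT* channels. On each array the log ratio of *Pdgfrb* exceeded that of *Pdgfra*, by 0.59, 0.30 and 0.28 on arrays 1, 2 and 3 and by 0.19 on the *WT* vs *WT* array.

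*Acta2*, the smooth muscle actin of vascular smooth muscle and of myofibroblasts, was held by 3 probes that differed from each other. The brightest (A_51_P450957) read 9.96, 10.40 and 11.17 in the *Mut* pools and 11.55, 11.83 and 11.87 in the *WT* pools of arrays 1, 2 and 3. The *Mut* pools spread over a wider range (SD 0.612) than the *WT* pools (SD 0.173), and pool 3 lay nearest to *WT*. The log2 *Mut*/*WT* was -1.59, -1.43 and -0.70, averaging -1.24 or 2.36-fold lower (SE 0.126, adjusted P = 4.1e-05, limma). Of the stroma markers this was the largest difference in this fit, while with the deposited log ratios it was -1.30, and the dim probes of *Tbx18* (-1.44) and *Pdgfra* (-1.41) lay beyond it. *WT* pool 2 in Cy3 read 11.52, above all 3 *Mut* pools in that dye, whose mean differed from it by -1.01. The log2 Cy3/Cy5 between the *WT* pools was itself -0.51. With the dye term the mean was -0.72 (SE 0.251, adjusted P = 0.210).

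The second *Acta2* probe (A_52_P420504), printed in 10 spots, went the other way. It read 8.48, 8.64 and 8.58 in the *Mut* pools and 8.11, 8.21 and 8.21 in the *WT* pools. Its log2 *Mut*/*WT* was 0.36, 0.43 and 0.37, averaging 0.39 (SE 0.051, adjusted P = 2.08e-04, limma), beside 0.10 between the *WT* pools, and it was -0.09 under median centring. Every spot used lay above 0, from 0.26 to 0.43 on array 1, from 0.37 to 0.47 on array 2 and from 0.31 to 0.41 on array 3. The log ratio of the brightest probe minus that of the 10-spot probe was -1.95, -1.86 and -1.07 on arrays 1, 2 and 3, and -0.62 between the *WT* pools. The third probe (A_52_P210078) was not well above background in any channel and gave -0.16, 0.03 and -0.06. The array thus gave no single direction for *Acta2*, and the mean over its probes was -0.30. Which part of the transcript each probe binds was not determined.

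**Figure D3:**
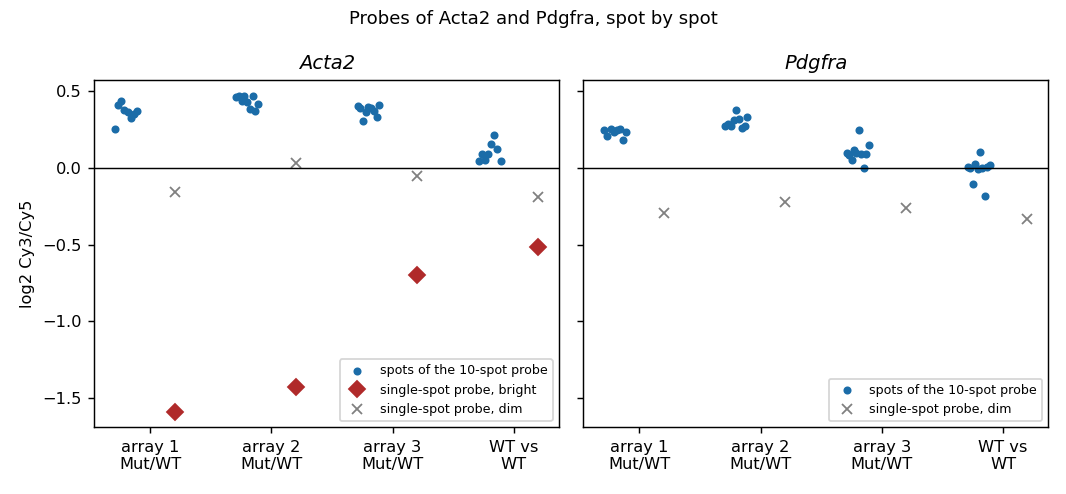
Log2 Cy3/Cy5 of each spot used, outlier spots left out, of the probes of *Acta2* (left) and *Pdgfra* (right) on arrays 1 to 3 (*Mut*/*WT*) and on the *WT* vs *WT* array. The spots of the 10-spot probes cluster within each array, above 0 on arrays 1 and 2, whereas the bright single-spot probe of *Acta2* lies between -1.59 and -0.70 on arrays 1 to 3; under median centring the means of both 10-spot probes were below 0.

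Because actins are close paralogs, their probes were read beside *Acta2*, a choice made after the values were seen. *Actg2*, the other smooth muscle actin, had a log2 *Mut*/*WT* of -0.71, -0.58 and -0.35, a mean of -0.55 (adjusted P = 1.39e-04, limma), and -0.45 between the *WT* pools. Its mean was -0.10 with the dye term and -0.95 under median centring. *Acta1* and *Actc1*, the skeletal and cardiac actins, gave means of 0.03 and -0.12 and did not pass the adjusted P. *Actb*, a cytoplasmic actin, was held by a 10-spot probe with a mean of 0.40 (adjusted P = 4.03e-04) and 0.22 between the *WT* pools, and it was -0.18 under median centring. Both smooth muscle actins thus had a probe that was lower on arrays 1 to 3, and the array cannot show how far one transcript hybridized to the probe of another.

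*Dcn* and *Lum* encode decorin and lumican, proteoglycans that bind collagen fibrils in the interstitium, and they differed in direction. *Dcn* (A_51_P334104) read 10.02, 10.09 and 9.94 in the *Mut* pools and 9.70, 9.61 and 9.64 in the *WT* pools. Its log2 *Mut*/*WT* was 0.32, 0.48 and 0.30, averaging 0.37 (SE 0.056, adjusted P = 5.5e-04, limma), beside 0.10 between the *WT* pools, and it was -0.22 under median centring. The *Mut* pools were all above the *WT* pools in Cy5, while *WT* pool 2 in Cy3 (10.05) lay inside the range of the *Mut* pools.

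*Lum* (A_51_P167527) read 8.25, 8.22 and 8.30 in the *Mut* pools and 8.82, 8.59 and 8.63 in the *WT* pools. Its log2 *Mut*/*WT* was -0.56, -0.37 and -0.33, averaging -0.42 (SE 0.059, adjusted P = 3.16e-04, limma), beside -0.28 between the *WT* pools. *WT* pool 2 in Cy3 read 8.24 and thus lay with the *Mut* pools, and with the dye term the mean was -0.14 (adjusted P = 0.653) and under median centring -0.91 (adjusted P = 0.0993). On every array the log ratio of *Dcn* exceeded that of *Lum*, by 0.88, 0.85 and 0.63 on arrays 1 to 3 and by 0.39 between the *WT* pools. Neither gene reached the fold limit.

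Compared in the same dye, the *Mut* pools were all above *WT* pool 2 at 3 of the 15 probes and all below it at 4, beside 25.4% and 28.8% of all probes. Those above were the second *Foxd1* probe, the brighter *Tbx18* probe and the 10-spot *Pdgfra* probe. Those below were the brightest *Acta2* probe, both *Meis1* probes and the dim *Pdgfra* probe. This comparison rests on 1 *WT* channel and was not tested.

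**Figure D4:**
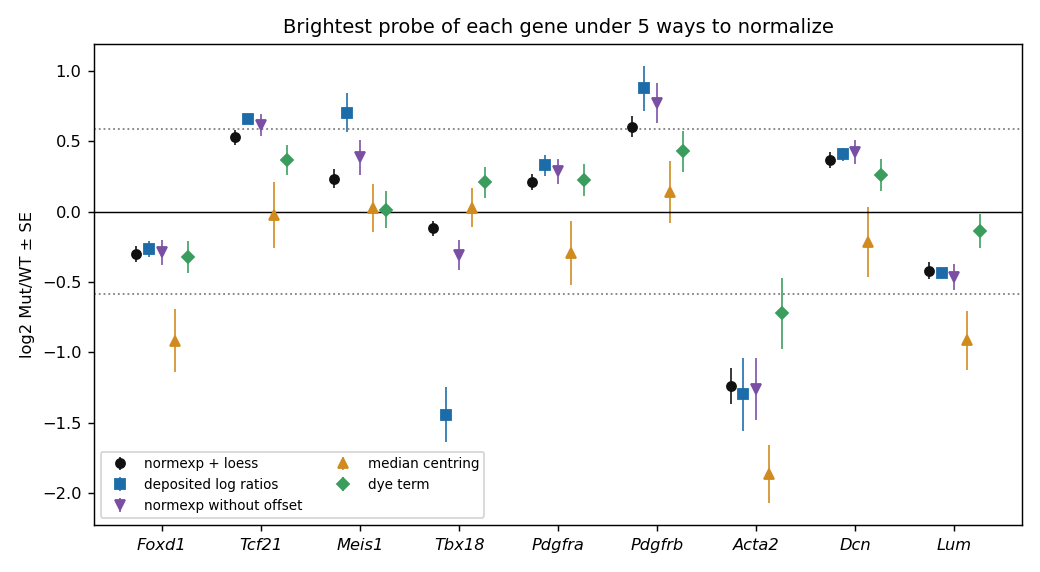
Log2 *Mut*/*WT* (mean ± SE of 3 arrays) of the brightest probe of each stroma marker with normexp and loess, as reported, and under 4 other ways to normalize; dotted lines mark 1.5-fold. *Acta2* stays below 0 in all 5, from -1.87 to -0.72, as do *Foxd1* and *Lum*, and *Pdgfrb* stays above 0, from 0.14 to 0.88, whereas *Tcf21*, *Pdgfra* and *Dcn* cross 0 under median centring and *Tbx18* under median centring and the dye term.

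Genes of the same cells and pathways, taken from lists of known markers, were read from the same fit. In it, 0.551% of all probes were called higher and 1.46% lower. Among 12 other regulators of the stroma, 11 were matched to a probe, 2 were called higher and 0 lower, and the median log2 *Mut*/*WT* was 0.067 (range -0.27 to 0.71). The called genes were *Zeb2*, a zinc finger repressor of mesenchymal cells, at 0.71 (adjusted P = 6.8e-06) and *Tshz3*, a teashirt factor of ureteral smooth muscle differentiation, at 0.63 (adjusted P = 8.86e-06, limma). Between the *WT* pools these probes read 0.46 and 0.35, and the means fell under the fold limit with the dye term (0.25 and 0.28) and under median centring (0.21 and 0.23), while the second probe of *Zeb2* had a mean of 0.24. *Meis3*, a homeobox factor related to *Meis1*, at -0.27 passed the adjusted P and not the fold limit.

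None of the 4 PDGF ligands was called. *Pdgfc* and *Pdgfa*, the ligands well above background in both channels on arrays 1 to 3, had a mean of 0.09 and 0.01, and the lowest value was -0.17 for *Pdgfd*, a dim probe. At the adjusted P alone, 1 of the 4 ligand genes was lower and 0 were higher, beside 16.4% and 13.2% of all probes.

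Of 12 smooth muscle and pericyte genes, 11 were matched, and 1 was called higher and 1 lower (median -0.12). At the adjusted P alone, 3 were higher and 5 lower, beside 13.2% and 16.4% of all probes. *Des*, the muscle intermediate filament desmin, held by a 10-spot probe, was lower at -0.96, -0.85 and -0.59, a mean of -0.80 (adjusted P = 1.27e-05, limma), beside -0.30 between the *WT* pools. With the dye term its mean was -0.50, under the fold limit, and under median centring -1.31. *Thy1*, a surface protein of fibroblasts, was called higher at 1 probe with a mean of 0.65 (adjusted P = 2.22e-05, limma; 0.54 with the dye term and 0.16 under median centring), while its other probe gave -0.01 (adjusted P = 0.935). Like the brightest *Acta2* probe, *Des* had its smallest difference on array 3. *Cald1*, the actin-binding caldesmon, had its largest there, with -0.47, -0.46 and -0.72 on arrays 1, 2 and 3. Its mean was -0.55, and that of *Notch3*, a receptor of vascular smooth muscle, was 0.36 (-0.24 under median centring), both under the fold limit.

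Beside *Dcn* and *Lum*, 8 other small leucine-rich proteoglycans were measured and 0 were called (range -0.17 to 0.50). *Ogn* (osteoglycin), at 0.56, 0.40 and 0.55 with a mean of 0.50 (adjusted P = 6.4e-05, limma) that was 0.045 under median centring, was the 1 gene of them well above background in both channels on arrays 1 to 3, and *Prelp*, *Aspn*, *Kera* and *Omd* were not above background in any channel of these arrays. Of 8 genes of the interstitial matrix, 7 were matched and 0 called. The largest values were 0.40 each for *Tnc* (tenascin C) and *Postn* (periostin), beside 0.39 and 0.18 between the *WT* pools, and both were under 0 with median centring (-0.0092 and -0.043).

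**Figure D5:**
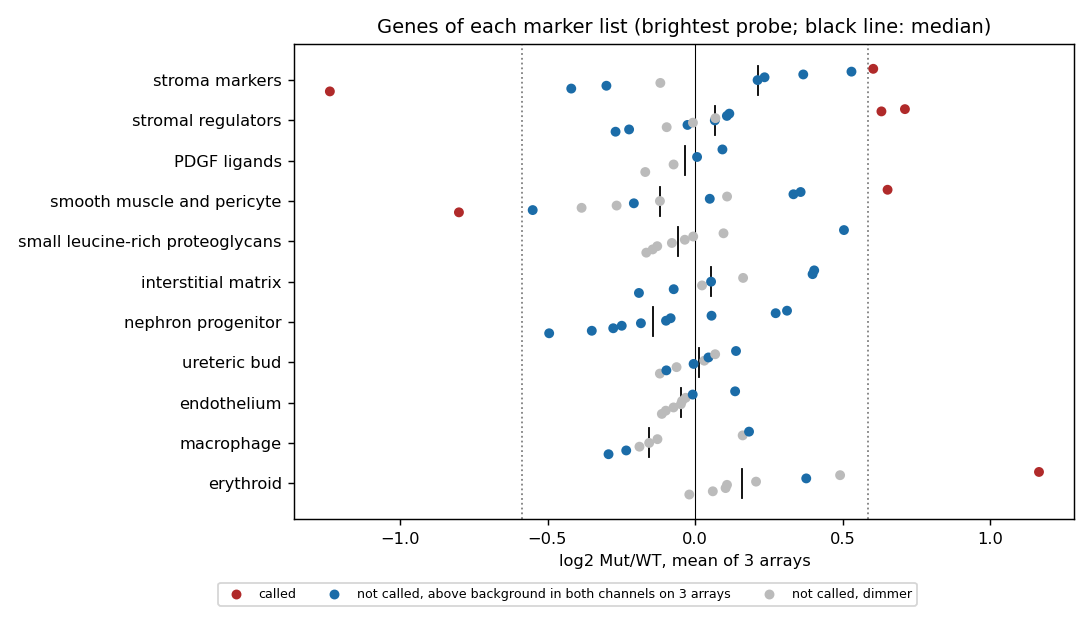
Mean log2 *Mut*/*WT* of arrays 1 to 3 for each gene of the stroma markers and of 10 further lists, at the brightest probe. Red points were called, blue points were not called and were well above background in both channels on arrays 1 to 3, grey points were dimmer, black lines are medians and dotted lines mark 1.5-fold. The stroma markers span the widest range, from -1.24 to 0.60, but its lower end is the single-spot probe of *Acta2*, whose 10-spot probe gave 0.39. The next lowest marker is *Lum* at -0.42, and the smooth muscle and pericyte genes span -0.80 to 0.65. The 8 ureteric bud and 8 endothelial genes lie between -0.12 and 0.14.

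Markers of the labelled cell type were read as well. All 10 nephron progenitor genes, *Six2* among them, were well above background in both channels on arrays 1 to 3. The same held for 8 of the 9 stroma markers and for 17915 of the 41174 probes. Signal above background therefore does not check the identity of the sorted cells. None of the 10 progenitor genes was called. At the adjusted P alone, 2 were higher and 5 lower, beside 22.4% and 25.7% of the probes above background. Their median log2 *Mut*/*WT* was -0.14. *Meox1* at -0.49 and *Osr1* at -0.35 had the largest differences, and *Six2* had -0.18 (adjusted P = 0.0404, limma). Their summed normalized signal was between 26532 and 28464 in the *Mut* channels and between 29513 and 31231 in the *WT* channels of arrays 1 to 3, and on the *WT* vs *WT* array it was 27743 in Cy3, within the range of the *Mut* channels, and 29970 in Cy5. Without *Crym*, a crystallin that binds thyroid hormone, the sum was between 14081 and 14646 in the *Mut* and between 13993 and 14502 in the *WT* channels, and these ranges overlapped. That of the 9 stroma markers was between 5850 and 6764 in the *Mut* and between 7565 and 8163 in the *WT* channels. Between the *WT* pools the stroma sum was 7487 in Cy3 and 8593 in Cy5. Without *Acta2* the sum of the other 8 markers went the other way within each array, with 4851, 4787 and 4457 in *Mut* and 4565, 4488 and 4426 in *WT* on arrays 1, 2 and 3, and 4549 in Cy3 and 4397 in Cy5 between the *WT* pools.

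Markers of other cell types were also read. Of 8 ureteric bud and 8 endothelial genes, 0 were called and 0 passed the adjusted P (*Krt8* 0.14, *Hoxb7* -0.10, *Flt1* 0.14, *Emcn* -0.01), and *Ret*, *Pecam1*, *Tek* and *Tie1* were not well above background in any of these channels. Of 8 macrophage genes, 7 were matched and 0 called, with *Lyz2* at -0.29 and *C1qb* at -0.23. At the adjusted P alone, 1 was higher and 4 lower, beside 13.2% and 16.4% of all probes. Of 8 erythroid genes, 4 were higher and 0 lower at the adjusted P alone, beside the same shares. *Hba-a1*, an adult alpha globin, was called higher at 1.29, 1.15 and 1.06, a mean of 1.17 (adjusted P = 3.23e-07, limma). Its mean was 0.54 under median centring, under the fold limit, and 1.39 with the dye term. *Alas2*, the enzyme of erythroid heme synthesis, had 0.38. The summed normalized signal of the 8 erythroid genes was between 3615 and 3796 in the *Mut* and between 1814 and 1987 in the *WT* channels of arrays 1 to 3. The single probe of *Hba-a1* held most of this sum, with a mean log2 signal of 11.59 in *Mut* and 10.42 in *WT*. The next brightest gene, *Alas2*, had 7.02 and 6.65. On the *WT* vs *WT* array, however, the sum was 3688 in *WT* pool 2 and 4164 in *WT* pool 1, so that pool 1 read 1814 on one array and 4164 on the other. The stroma marker levels of *WT* pool 1 moved between the same arrays, and the part of blood cells or of the hybridization in these results was not tested.

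The mean difference of the targeted gene was no larger than that between 2 *WT* pools. The 1 probe of *Atp6ap2*, which encodes PRR, had a log2 *Mut*/*WT* of -0.08, -0.19 and -0.25 on arrays 1 to 3, with a mean of -0.17 (SE 0.055) that passed the adjusted P (0.0352, limma) and not the fold limit. Between the *WT* pools it read -0.19, so this probe does not check the labels, and which part of the transcript it binds was not determined. The share of probes well above background ran from 45.1% to 58.3% over the 8 channels, and 0 spots were saturated. The *Mut*/*WT* log ratios of arrays 1 to 3 had a Pearson correlation over probes of 0.724 to 0.849 with each other, and of 0.398 to 0.450 with the log ratios of the *WT* vs *WT* array. Every direction given above rests on the dye labels of the samples.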

How the data were processed

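Groups, pools and dyes follow the sample labels. For 4 arrays on 1 slide, the authors deposited scanner tables made with Agilent Feature Extraction 10.7.3.1. The deposited intensity values give the median signal and median background of both channels without normalization. The deposited log10 ratios (red over green), background-subtracted and dye-normalized by the authors in the same program, served as an alternative, and a deposited table of the series held the same ratios. GeneSpring values were not analysed here.

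The background was corrected by normexp (offset 50) on the median intensities, because the mean signal planned for was not at hand. Loess was applied to the ratios of each array, control and outlier spots (122 to 162 per array) were left out, and spots of a probe were averaged. Ratios were turned to Cy3/Cy5, tested against 0 on arrays 1 to 3 with limma 3.58.1 in R 4.3.3 over 41174 probes, and called at an adjusted P under 0.05 and over 1.5-fold. The fit was tested on simulated data. Normalized log2 signals are channel levels after Aquantile normalization. *Mut* and *WT* pools are paired by sharing an array, and their deviations from the group means correlated at 0.388, 0.431 and 0.320 over probes. The median signal was 65.5 to 82 in Cy3 and 84 to 92 in Cy5 over a background of 16 to 17 and 50. With 3 arrays, precision is limited by their number.

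Symbols came from a table of GRCm38.p6, used for names only, for 22951 probes (55.7%). *Dchs1*, *Myl9*, *Vcan* and *Csf1r* were not matched. All 9 stroma genes are given with every probe. Of the other lists, the genes called are named, and otherwise the 2 with the largest difference among those well above background. The result of 1 gene of these lists is not reported here. The 3 genes most like a marker are those with the highest Pearson correlation of the 8 channel levels. The genes and lists were chosen with earlier results of these data known. Alternatives covered the values, offset, centring, outlier spots, dim probes, a dye term per probe from the *WT* vs *WT* array, the pairing, each replicate, the methods' *t*-test, the fold limit and the mean over probes.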

Additional observations from a re-analysis of the deposited data

How the results depend on the processing

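The 827 probes called became 2704 with the deposited log ratios, 320 with the dye term, 12178 at the adjusted P alone, and 0 without the offset, with median centring and with the methods' *t*-test. At an unadjusted P under 0.05, these last 3 held 3523, 6032 and 691 probes past the fold limit. Higher calls were 27.4% as reported, 55.0% with the deposited log ratios and 45.6% with the dye term. The 2 stroma marker probes called became 1 with the deposited log ratios (*Tcf21*, 0.66), 0 without the offset, with median centring, with the dye term and with the methods' *t*-test, and 11 at the adjusted P alone. Without the array block, with *Mut* and *WT* channels unpaired, 824 probes and the same count of 2 stroma probes were called. Leaving out each replicate gave 606 to 1207 probes and 1 to 2 stroma probes, and without replicate 1 *Pdgfrb* fell under the fold limit (0.49).

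Median centring reversed *Tcf21* (-0.025), *Tbx18* (0.029), *Pdgfra* (-0.29) and *Dcn* (-0.22) and moved the median of the 17915 probes above background from -0.0041 to -0.44. *Tbx18* was 0.21 with the dye term, and the mean over probes was -0.024 for *Pdgfra*, -0.016 for *Tbx18* and -0.30 for *Acta2*. *Pdgfrb* and *Acta2* kept their direction and lost the call with the deposited log ratios (adjusted P = 0.0804 and 0.0883), without the offset (0.115 and 0.112), with median centring (0.683 and 0.0789), with the dye term (0.203 and 0.210) and with the methods' *t*-test (0.195 and 0.201). At the adjusted P alone, 0 of the 9 genes passed in the last 4 of these. *Tbx18* gave no value with dim probes left out. Of 103 gene and setting pairs, 83 kept direction and call. A gene not called as reported kept its call by staying uncalled, whatever its adjusted P, so this count does not measure robustness. The 11 pairs in which a call was lost were all of *Pdgfrb* and *Acta2*. The causes were not tested. Signal near background limits *Tbx18*, the dim *Pdgfra* probe and the third *Acta2* probe.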

Other observations

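The genes whose channel levels most resembled those of the markers were read over the 8 channels, which share arrays, dyes and pools, among 12511 named probes above background in all of them, as a description. For *Foxd1* they were *Ptp4a2* (Pearson r = 0.987), *Ypel5* (0.985) and *Meox1* (0.982), a homeobox gene of the nephron progenitor list. For *Pdgfra* they were *G6pdx* (0.986), *Brip1* (0.982) and *Rerg* (0.980), for *Acta2* *Adsl* (0.996), *Igfbp4* (0.996) and *Atp5b* (0.995), and for *Dcn* *Prkcsh* (0.993), *Tmcc3* (0.990) and *Hrob* (0.987).

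Among the stroma markers themselves, the levels of *Tcf21* and *Dcn* had an r of 0.962 and those of *Pdgfrb* and *Lum* of -0.962 over the same 8 channels. *Foxd1* had an r of 0.735 with *Lum*, 0.200 with *Acta2* and -0.859 with *Dcn*.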
